A study of Mus musculus with 16 samples.

Results

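The transcripts described here are those of the mouse mitochondrial genome, taken as every row of the count tables whose symbol starts with mt- and divided by RNA class. Of 30389 genes in the tables, 30 met the rule, and all 30 were among the 37 genes annotated on the mitochondrial chromosome. They were the 2 ribosomal RNA (rRNA) genes, 12 of 13 protein-coding (mRNA) genes and 16 of 22 transfer RNA (tRNA) genes. Values were counted in cell barcodes with 200 to 7000 detected genes, which kept 28530 of 48000 barcodes, and were compared per library and per cell class.

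The libraries came from the dissociated neocortex of 17-month-old mice, either THY-Tau22 or their wild-type (WT) littermates, with 1 Drop-seq library per mouse. Drop-seq captures polyadenylated RNA on barcoded beads, and a unique molecular identifier (UMI) lets amplified copies of a transcript be counted once. THY-Tau22 mice are heterozygous for human 4-repeat tau with disease-linked mutations, expressed in neurons from a Thy1.2 promoter, while WT littermates lack the transgene. By the labels there were 4 males of each genotype, 3 WT females and 5 THY-Tau22 females, with no treatment named. Replicate numbers follow the order of deposit and identify a mouse without pairing it to any other.

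Before any comparison, 1 pair of libraries had to be set aside. Of 3000 barcodes each, 2952 were found both in WT male replicate 3 and in the library labelled THY-Tau22 male replicate 4, whereas no other pair shared more than 12, so the same cells stand under opposite genotypes. Both were left out of the main comparisons, which rest on 3 males of each genotype and all 8 females, with 24578 kept barcodes and 17735830 UMIs. In addition, 1 animal number stands in the titles of both WT male replicate 1 and a female, THY-Tau22 replicate 1, and the labels do not say why. The total per library ranged from 1041675 to 2237505 UMIs over all 3000 barcodes.

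Cell classes were clusters named from nuclear marker genes, with the mitochondrial genes left out of the clustering, so that no mitochondrial count shaped a class. The largest were astrocyte-like (5352 cells in the 16 tables), oligodendrocyte-like (4956) and endothelial-like cells (3957), and microglia-like cells in clusters of 5327 and 2516. Each had at least 12 of its listed markers detected. The larger microglia-like cluster was led by the inflammatory genes Casp4, Cd83, Nfkbiz and Nlrp3, and the smaller one by Rgs1, P2ry12 and Gpr34. Neuron-like cells (1469) and oligodendrocyte precursor (OPC)-like cells (1326) were fewer. An unnamed cluster led by Enpp2 and Kif5a held 28.6% of the kept cells of THY-Tau22 male replicate 3 and 1.38% to 6.51% of those of each other library.

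The mitochondrial genome is transcribed from both strands as long precursors. The tRNAs that punctuate it are cut out, which frees the rRNAs of the mitochondrial ribosome and the mRNAs. Every mRNA encodes a subunit of the respiratory chain or of ATP synthase, and the remaining subunits come from nuclear genes. Neurons are known for a high demand for ATP from this chain.

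The sequences below show why the mRNA genes cannot all be read from these tables in the same way. Long stretches of mitochondrial sequence also exist as copies annotated as separate nuclear genes, and a read that fits both places may be dropped or split. Capitals mark bases that lie in a 60-base window also found in a transcript of another gene, and lower-case bases lie in none. The sequences are from the GRCm38 assembly, chromosome M, read 5′ to 3′ on the strand of the gene. They are the last 80 bases of mt-Co2 (chrM:7617-7696, plus strand), of mt-Nd3 (chrM:9727-9806, plus strand) and of mt-Cytb (chrM:15209-15288, plus strand), the 80 bases of mt-Nd4 at which its shared stretch ends (chrM:11003-11082, plus strand), and the whole of mt-Tp, the proline tRNA (chrM:15356-15422, minus strand).
mt-Co2: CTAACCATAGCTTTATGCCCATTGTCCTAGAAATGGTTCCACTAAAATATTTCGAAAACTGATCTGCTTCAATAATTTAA
mt-Nd3: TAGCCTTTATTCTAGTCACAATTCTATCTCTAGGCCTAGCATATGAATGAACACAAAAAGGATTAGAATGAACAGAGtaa
mt-Nd4: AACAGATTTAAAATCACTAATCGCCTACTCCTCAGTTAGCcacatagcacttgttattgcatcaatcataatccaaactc
mt-Cytb: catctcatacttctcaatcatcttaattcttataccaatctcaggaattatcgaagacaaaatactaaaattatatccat
mt-Tp: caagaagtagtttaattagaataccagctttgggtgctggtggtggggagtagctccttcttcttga
The end of mt-Co2 was shared over its whole length and that of mt-Nd3 over all but its last bases. The end of mt-Cytb and the whole of mt-Tp held no shared window.

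The 13 mRNA genes fell into well-counted and nearly uncounted ones along this sharing, with mt-Nd3 and mt-Atp8 the exceptions. Of 5 genes with over 90% of their 60-base windows in another gene's transcript, 1 reached 100 UMIs in the 14 libraries, and the 5 together had 760 UMIs. Of the 8 genes below 90%, 7 reached 100 UMIs, and together they had 153168. The first 5 were mt-Co2 (100% of windows, mostly with Gm28661, 5 UMIs) and mt-Co3 (99.9%, copy Gm28437, 0 UMIs), both subunits of cytochrome c oxidase, mt-Atp6 of ATP synthase (99.5%, copy Gm10925, 2 UMIs), and the complex I subunits mt-Nd4l (98.7%, copy Gm10222, 0 UMIs) and mt-Nd3 (97.9%, copy Gm28438, 753 UMIs). mt-Atp8, a further ATP synthase subunit, shared no window and had no row. It overlaps mt-Atp6 on the same strand. Whether reads were lost to the copies was not tested, since the aligner's handling of multiple matches was not given in the sources used here, and a low count of these genes cannot be read as a low transcript level.

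Among the well-counted genes, mt-Nd4 shared 61.9% of its windows with Gm28439, but none within its last 300 bases, where capture at the 3′ end tends to place reads, and it had 16642 UMIs. mt-Co1, the catalytic subunit of cytochrome c oxidase, shared 46.5% of its windows and all of those within its last 300 bases, yet had 10523 UMIs. The copies themselves took up few UMIs in the same barcodes. Gm28437 had 40, Gm28439 23, Gm10925 21, Gm29216 11, Gm28438 5, Gm28661 3 and Gm10222 0.

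**Figure D1:**
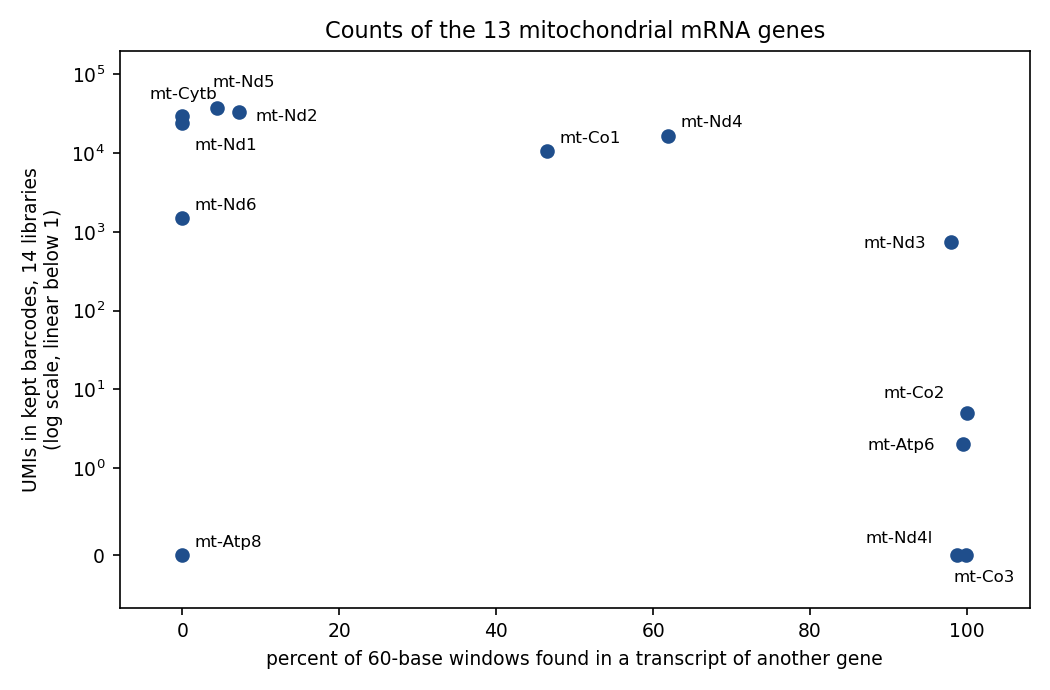
UMIs of each mitochondrial mRNA gene in the kept barcodes of 14 libraries (vertical, log scale, linear below 1) against the percent of its 60-base windows found in a transcript of another gene (horizontal). The genes above 90% lie between 0 and 753 UMIs, and the others, except mt-Atp8 at 0, between 1486 and 37829.

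rRNA made up nearly all mitochondrial UMIs. In the 14 libraries, the 2 rRNA genes had 2848791 UMIs, 94.7% of mitochondrial UMIs and 16.1% of all UMIs. The mRNA genes had 153928 UMIs (5.12% and 0.868%) and the tRNA genes 6114 (0.203% and 0.0345%). An rRNA UMI was counted in all but 1 of the 24578 kept barcodes, an mRNA UMI in 91.6% of them and a tRNA UMI in 18.1%. The rRNA share of single barcodes had a median of 14.7%, with a 5th percentile of 4.18% and a 95th of 32.9%. Without rRNA, 91 of the 28530 kept barcodes exceeded 5% mitochondrial UMIs.

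Within rRNA, mt-Rnr2, the 16S rRNA of the large mitochondrial ribosomal subunit (chrM:1094-2675), had 2680757 UMIs and made up 94.1% of the class. mt-Rnr1, the 12S rRNA of the small subunit (chrM:70-1024), had 168034. Per kilobase of gene, the level was 95543 UMIs per 1000000 UMIs (CPM) for mt-Rnr2 and 9921 for mt-Rnr1. A mitochondrial ribosome holds a single copy of each, and what set the unequal counts was not tested.

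Complex I subunits made up 73.7% of mRNA UMIs, mt-Cytb of complex III 19.4% and complex IV subunits 6.84%. Complex V had 2 UMIs. Per kilobase, mt-Nd2 stood highest among the mRNAs at 1785 CPM, followed by mt-Cytb (1475), mt-Nd1 (1409), mt-Nd5 (1169), mt-Nd4 (681), mt-Co1 (384), mt-Nd6 (161) and mt-Nd3 (122). Of the 4 lowest, mt-Nd4, mt-Co1 and mt-Nd3 are touched by sequence sharing. mt-Nd6, the only mRNA of the minus strand, overlaps the end of mt-Nd5 (chrM:11742-13565 and chrM:13552-14070). Sharing also touched mt-Nd2, the highest, at 7.15% of its windows (29.0% within the last 300 bases), and mt-Nd5 at 4.42%. Whether sharing or overlap set this order was not tested.

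Of the 16 tRNA genes with a row, mt-Tp (proline) was the most counted with 1265 UMIs, 20.7% of the class. mt-Tc (cysteine) had 900 UMIs, mt-Tv (valine) 733 and mt-Tm (methionine) 654, and the remaining genes had 5 (mt-Tr) to 416 (mt-Ta). Of the 16, the 6 tRNA genes of the minus strand held 49.4% of the tRNA UMIs. mt-Tn, mt-Ts1, mt-Td, mt-Tk, mt-Tg and mt-Th had no row. Mature tRNAs carry no poly(A) tail, and whether these UMIs came from precursors, from fragments or from antisense transcripts could not be told apart.

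Neuron-like cells had the highest mRNA share of the 8 classes with at least 10 cells in every library. The median over 14 libraries was 1.60% of UMIs in neuron-like, 1.01% in astrocyte-like, 0.906% in oligodendrocyte-like, 0.755% in microglia-like, 0.748% in mural-like, 0.737% in endothelial-like, 0.639% in OPC-like and 0.577% in macrophage-like cells. Neuron-like cells stood above astrocyte-like cells in 14 of 14 libraries, and oligodendrocyte-like above microglia-like cells in 14 of 14. Microglia-like exceeded mural-like cells in 6 of 14 libraries and mural-like exceeded endothelial-like cells in 8 of 14, so these neighbours did not differ beyond their spread. Fibroblast-like cells reached the same median of 1.60%, but in the 8 libraries with enough of them they never exceeded the neuron-like cells.

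The rRNA share followed another order. Among the same 8 classes it was highest in astrocyte-like cells, with a median of 19.6% of UMIs, and lowest in OPC-like cells (10.8%). Between them came neuron-like (18.1%), endothelial-like (16.1%), microglia-like (14.0%), mural-like (13.4%), oligodendrocyte-like (13.2%) and macrophage-like cells (12.8%). Ependymal-like cells, in the 4 libraries with enough of them, had a median of 22.3% and exceeded astrocyte-like cells in 3. In the 8 libraries with enough fibroblast-like cells, astrocyte-like cells exceeded them in 4 and neuron-like cells in 2. Astrocyte-like cells exceeded neuron-like cells in 8 of 14 libraries, so their order is not fixed, while neuron-like exceeded endothelial-like cells in 13 of 14. The order of the next classes is not fixed either. Microglia-like exceeded macrophage-like cells in 6 of 14 libraries, mural-like exceeded oligodendrocyte-like cells in 5, and oligodendrocyte-like exceeded macrophage-like cells in 4, against the order of their medians. Macrophage-like exceeded OPC-like cells in 12 of 14. Among the 8 classes the rRNA to mRNA ratio was lowest in neuron-like cells, with a median of 11.9, below the oligodendrocyte-like median of 14.4 in 14 of 14 libraries. Fibroblast-like cells were above neuron-like cells in 7 of the 8 libraries that held enough of them. The highest medians among the 8 were 25.5 in macrophage-like and 22.2 in endothelial-like cells. Macrophage-like exceeded endothelial-like cells in 5 of 14 libraries, so their order is not fixed. Classes are clusters, so these orders are descriptions without a test.

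**Figure D2:**
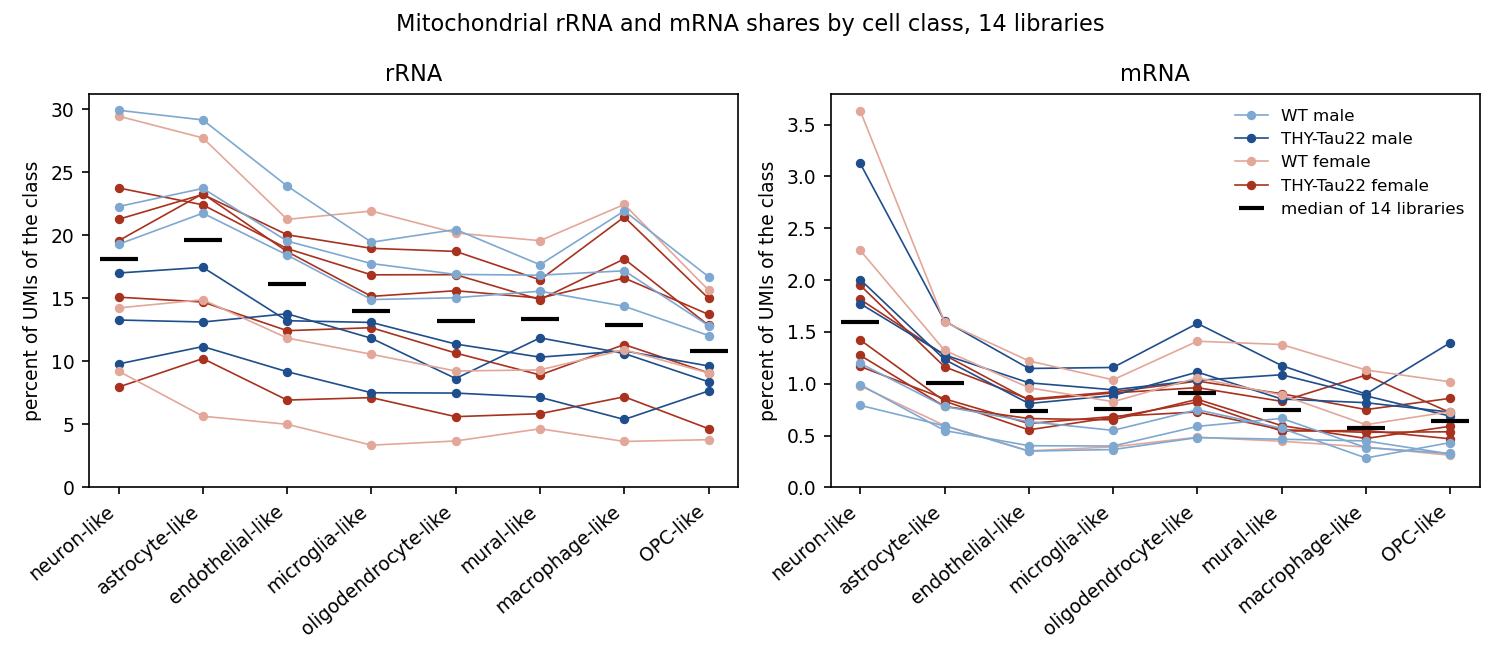
Percent of the UMIs of each cell class that came from mitochondrial rRNA (left) and mRNA (right), with 1 line per library coloured by group and a black bar at the median of the 14 libraries. The mRNA share falls from a median of 1.60% in neuron-like cells to 0.577% in macrophage-like cells. Among the classes shown, the median rRNA share is highest in astrocyte-like cells at 19.6%.

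The cell classes also differed in which mRNAs they held, measured as a gene's percent of the mitochondrial mRNA UMIs of a class. mt-Nd1, a membrane subunit of complex I, made up a median of 10.0% in astrocyte-like cells, 15.4% in endothelial-like, 16.1% in oligodendrocyte-like, 17.0% in microglia-like and 19.1% in neuron-like cells. Astrocyte-like cells were lower than each of these 4 classes, and than mural-like and OPC-like cells, in 14 of 14 libraries. The opposite held for mt-Nd5, also of complex I, which made up 30.9% in astrocyte-like cells against 27.6% in microglia-like, 27.0% in neuron-like, 20.9% in endothelial-like and 20.7% in oligodendrocyte-like cells. Astrocyte-like cells were again the extreme, above each of these in 14 of 14 libraries.

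mt-Co1 was lowest in microglia-like cells at a median of 4.96%. It stood at 5.88% in neuron-like, 6.62% in astrocyte-like, 8.45% in endothelial-like and 9.05% in oligodendrocyte-like cells. Microglia-like cells were below neuron-like cells in 13 of 14 libraries and below astrocyte-like, endothelial-like, mural-like and oligodendrocyte-like cells in 14 of 14. mt-Cytb, the cytochrome b of complex III, had its highest medians in oligodendrocyte-like cells at 20.8% and mural-like cells at 20.6%, with 19.1% in endothelial-like, 18.2% in OPC-like, 17.9% in microglia-like, 17.5% in astrocyte-like and 16.2% in neuron-like cells. Oligodendrocyte-like cells were higher in 14 of 14 libraries than microglia-like and astrocyte-like cells and in 13 of 14 than neuron-like cells, but in 9 of 14 than mural-like and in 11 of 14 than endothelial-like cells. mt-Nd2 and mt-Nd4 varied less, with medians of 20.9% to 25.0% and 9.56% to 10.9% over the 7 classes.

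Barcodes with few detected genes held more rRNA. The median rRNA share was 26.5% in the 17422 barcodes with under 200 genes, which were not kept and can hold free RNA or debris, 18.5% from 200 to under 400 genes, 14.8% from 400 to under 1000 and 11.4% at 1000 or more. It fell at each step in 14 of 14 libraries. The mRNA share was 1.30% under 200 genes and then 0.891%, 0.877% and 0.872%. The steps were downward in 14, 10 and 4 of 14 libraries, so that at 1000 or more genes most libraries rose again. Both classes were thus present in barcodes too small to be kept, and the part of free RNA in the shares of cells was not tested.

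**Figure D3:**
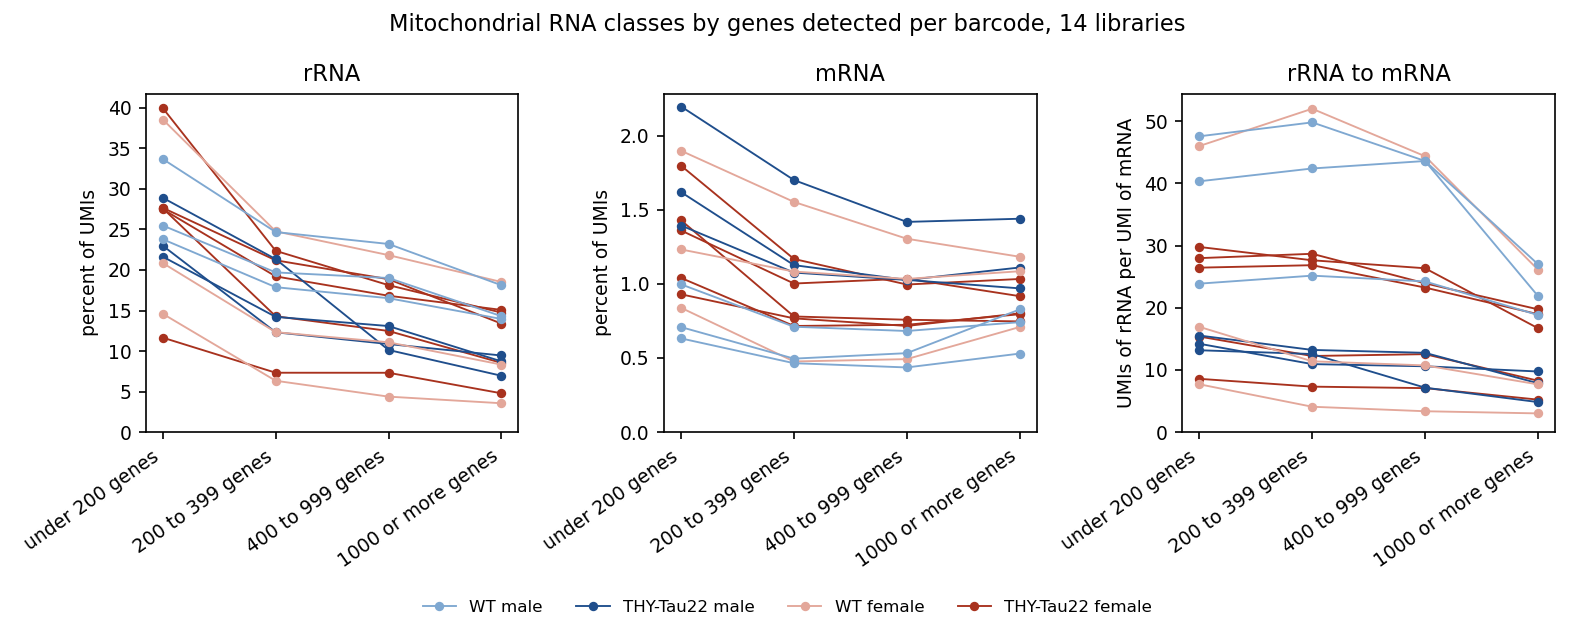
Percent of UMIs from mitochondrial rRNA (left) and mRNA (middle) and UMIs of rRNA per UMI of mRNA (right), in barcodes grouped by detected genes, with 1 line per library coloured by group. The rRNA share falls at each step in 14 of 14 libraries, from a median of 26.5% to 11.4%, whereas the median mRNA share changes from 0.891% to 0.872% above 200 genes.

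In males, the THY-Tau22 libraries held less mitochondrial rRNA and more mitochondrial mRNA than the WT libraries, without overlap. Such separation of 3 against 3 libraries was common. The level of 22.4% of all genes tested lay higher in all THY-Tau22 males, and that of 6.68% lay lower. rRNA made up 23.0%, 17.1% and 19.1% of UMIs in WT males and 11.4%, 13.2% and 11.3% in THY-Tau22 males, with means of 19.7% ± 3.01 and 11.9% ± 1.07 (SD, n = 3 and 3). mRNA made up 0.565%, 0.702% and 0.460% in WT males and 1.07%, 1.06% and 1.48% in THY-Tau22 males (0.576% ± 0.121 and 1.20% ± 0.242). The rRNA to mRNA ratio was 40.7, 24.3 and 41.5 in WT males and 10.7, 12.5 and 7.61 in THY-Tau22 males. With the shared library counted as a THY-Tau22 male, or both tables used as labelled, the male rRNA shares and rRNA to mRNA ratios overlapped. The male mRNA shares did not overlap in either setting. tRNA overlapped, at 0.0214%, 0.0220% and 0.0164% in WT males and 0.0304%, 0.0187% and 0.0734% in THY-Tau22 males.

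In females, all 3 classes overlapped between genotypes. rRNA made up 11.6%, 4.66% and 23.1% of UMIs in WT females and 17.4%, 19.8%, 12.7%, 7.19% and 18.8% in THY-Tau22 females, with means of 13.1% ± 9.31 and 15.2% ± 5.22 (SD, n = 3 and 5). mRNA made up 1.07%, 1.34% and 0.498% in WT females and 0.732%, 0.753%, 1.07%, 1.01% and 0.762% in THY-Tau22 females. The WT females spanned nearly the whole range of the series, from the lowest rRNA share of all (replicate 2) to the highest (replicate 3). The titles of WT female replicate 3 and THY-Tau22 female replicate 5 lack the mark MB21 of all other titles, which the labels do not explain. Without these libraries the female difference, THY-Tau22 minus WT, was 6.10 percentage points in rRNA and -0.310 in mRNA (n = 4 and 2). With all females it was 2.03 and -0.101, and the groups overlapped either way. The 2 tables set aside lay at 19.6% and 19.9% rRNA and 0.734% and 0.773% mRNA, close to each other.

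Over the 14 libraries, all those with an mRNA share under 0.9% had a higher rRNA share than all the others. mRNA shares of 0.460% to 0.762% came with rRNA shares of 17.1% to 23.1% in 7 libraries, namely 3 WT males, 1 WT female and 3 THY-Tau22 females. mRNA shares of 1.01% to 1.48% came with rRNA shares of 4.66% to 13.2% in the other 7, which held 3 THY-Tau22 males and 2 females of each genotype. Within a group the relation did not always hold. THY-Tau22 female replicate 4 was below replicate 3 in both mRNA (1.01% and 1.07%) and rRNA (7.19% and 12.7%). WT male replicate 4 was likewise below replicate 1 in both (0.460% and 0.565% mRNA, 19.1% and 23.0% rRNA). Since the shares are parts of 1 total, a lower rRNA share raises the others. Taken as a percent of UMIs outside rRNA, mRNA still lay higher in THY-Tau22 males (1.36% ± 0.265) than in WT males (0.716% ± 0.140).

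**Figure D4:**
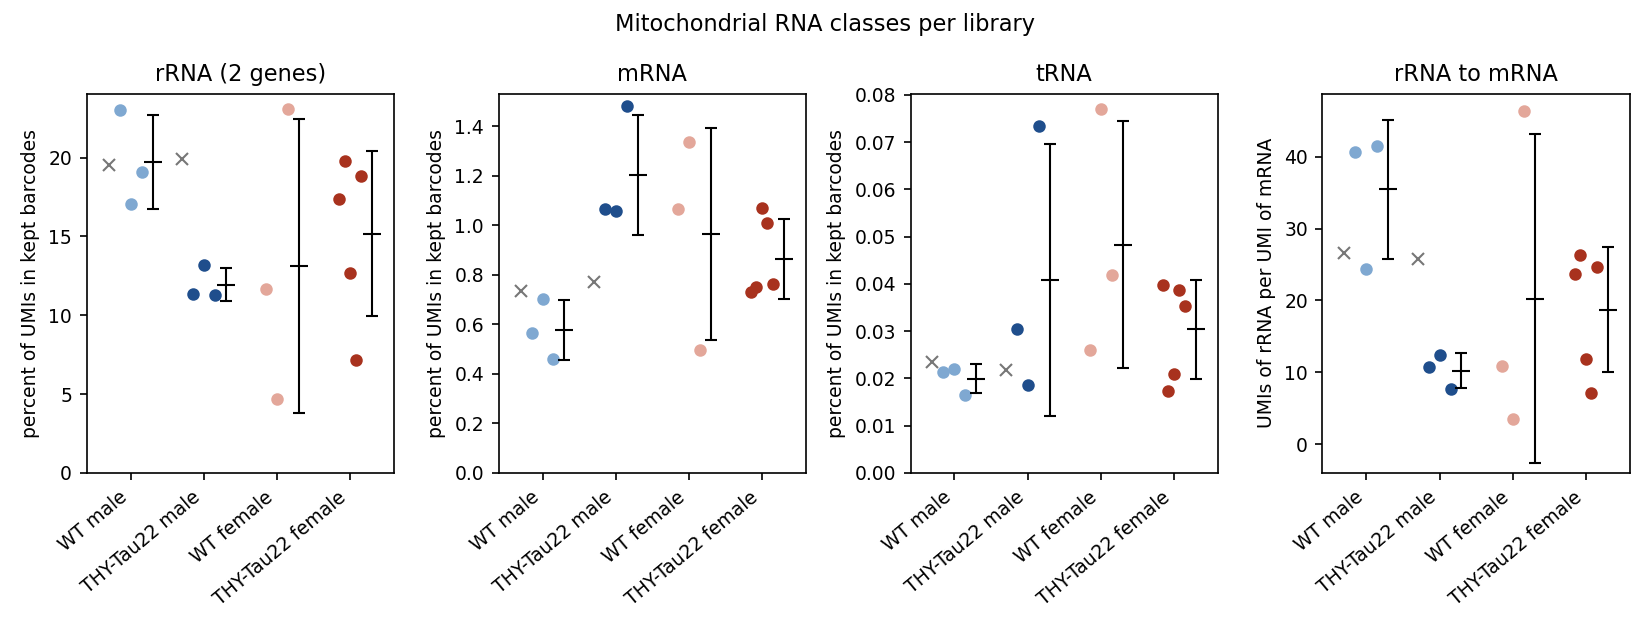
Percent of UMIs of the kept barcodes from mitochondrial rRNA, mRNA and tRNA and UMIs of rRNA per UMI of mRNA, with 1 point per library, the group mean and SD as black bars, and grey crosses for the 2 tables set aside. The 3 THY-Tau22 males lie below the 3 WT males in rRNA and above them in mRNA, whereas the female groups overlap in all panels.

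Other nuclear transcripts moved with this split, and their part in it was not tested. Malat1, a long noncoding RNA retained in the nucleus, made up 5.05% to 6.28% of UMIs in WT males and 2.92% to 4.10% in THY-Tau22 males. Ribosomal protein mRNAs made up 0.931% to 1.14% in WT males and 1.55% to 1.94% in THY-Tau22 males. In WT females the same measures ran from 2.96% to 6.22% and from 0.879% to 2.33%. The median UMIs per cell overlapped, at 494 to 619 in WT males and 496 to 714 in THY-Tau22 males. In sums over all cells, a change in the mix of cells cannot be told apart from a change of RNA within them.

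The male difference was present within the named cell classes as well. In each of 8 named classes, the 3 THY-Tau22 males all lay below the 3 WT males in rRNA share, at 0.502 to 0.622 of the WT mean, and above them in mRNA share, at 1.83 to 2.60 times the WT mean. In neuron-like cells, where the transgene is expressed, mRNA averaged 0.993% ± 0.202 in WT males and 2.30% ± 0.723 in THY-Tau22 males (SD, n = 3 and 3). In microglia-like cells it averaged 0.438% ± 0.0984 and 0.995% ± 0.143. Cells of the unnamed clusters differed in that the male groups overlapped in both measures. Their rRNA means were 15.6% in THY-Tau22 and 19.7% in WT males, and their mRNA means 1.09% and 0.671%. In females, the groups overlapped in all 8 named classes for both measures. The classes of a mouse come from the same library and are not independent. The share of all genes that separate in this way within a class is not given here. The mRNA shares of the males also did not overlap in the barcodes under 200 genes, with at most 0.996% in WT and at least 1.39% in THY-Tau22 males, so the difference was not limited to kept cells. The rRNA shares of the males overlapped in those barcodes and from 200 to under 400 genes.

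Gene by gene, edgeR's quasi-likelihood test on UMI counts summed per mouse, with Benjamini-Hochberg adjustment over all 11643 genes tested, called 0 of 24 mitochondrial genes in all cells in each of 4 contrasts, where it called 0% of all genes. These contrasts set genotypes against each other within males, within females and as the average of both, and the interaction took the male minus the female difference. A call needed an adjusted p under 0.05 together with a change of 0.5 or more on the log2 scale in either direction. Unadjusted p was under 0.05 for 12 of 24 members in males, where 15.4% of all genes passed, for 3 in females (1.74%), for 4 averaged over the sexes (4.22%) and for 14 in the interaction (12.7%). DESeq2 called 1 member, mt-Nd1, in males (0.129% of all genes) and 0 in the other contrasts, for which the share of all genes is not given here.

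The CPM of 9 of 24 members lay higher in all THY-Tau22 males than in all WT males, against 22.4% of all genes, and that of 2, mt-Rnr1 and mt-Rnr2, lay lower, against 6.68%. The 9 were mt-Co1, mt-Cytb, mt-Nd1, mt-Nd2, mt-Nd3, mt-Nd4, mt-Nd5, mt-Tf and mt-Ty. In females, 0 of 24 members were separated upward (0.679% of all genes) and 0 downward (0.507%).

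For the rRNAs in males, the level of mt-Rnr1 was 14334, 7810 and 13504 CPM in WT and 5050, 6670 and 6187 CPM in THY-Tau22 libraries. The fitted log2 fold change was -1.18 ± 0.57 (SE, edgeR's adjusted p = 0.322). mt-Rnr2 was at 215525, 162914 and 177354 CPM against 108740, 125174 and 106611 CPM, and its fitted change on the log2 scale was -0.89 ± 0.48 (adjusted p = 0.363). In females, mt-Rnr1 gave 0.18 ± 0.50 and mt-Rnr2 0.16 ± 0.43. None of these passed the test.

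Of the 6 complex I mRNAs tested, mt-Nd3 had the largest fitted difference in males and the smallest counts. It was at 17.7, 21.5 and 13.7 CPM in WT males (12 to 37 UMIs a library) and at 89.7, 59.1 and 124 CPM in THY-Tau22 males (73 to 181 UMIs). The log2 fold change was 2.16 ± 0.41 with edgeR's adjusted p = 0.129, and in females it was -0.77 ± 0.36. mt-Nd3 is also the gene with 97.9% shared windows, so its value may hold reads of its copy. mt-Nd1 was at 942, 947 and 585 CPM in WT males and 1583, 1403 and 2824 CPM in THY-Tau22 males. Its log2 fold change was 1.03 ± 0.29 in males (adjusted p = 0.228) and -0.06 ± 0.26 in females. In males, the log2 fold change was 1.07 ± 0.31 for mt-Nd4, 0.71 ± 0.25 for mt-Nd2, 0.59 ± 0.31 for mt-Nd5 and 0.20 ± 0.24 for mt-Nd6. The male groups were separate for the first 3 of these and overlapped for mt-Nd6, at 88.1, 69.9 and 70.6 CPM against 74.4, 96.3 and 132 CPM.

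mt-Cytb of complex III was at 993, 1110 and 556 CPM in WT males and 2156, 1758 and 3460 CPM in THY-Tau22 males. WT females were at 2186, 3286 and 707 CPM and THY-Tau22 females at 1691, 1097, 1857, 2259 and 1470 CPM, so that WT female replicates 1 and 2 lay within the range of the THY-Tau22 males. The log2 fold change of mt-Cytb was 1.28 ± 0.37 in males (edgeR's adjusted p = 0.228) and -0.22 ± 0.32 in females. mt-Co1 of complex IV was at 317, 569 and 442 CPM in WT males and 1048, 765 and 827 CPM in THY-Tau22 males, and gave 0.82 ± 0.28 (adjusted p = 0.243) and -0.21 ± 0.25 in females. Over the 8 tested mRNA genes, the fitted value was positive for 8 in males, with a median of 0.93, and negative for 7 in females, with a median of -0.18. The median over all genes was 0.01 in males and -0.01 in females.

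The tRNAs were few in number and the direction of their fitted values differed between sexes. In males the genotype difference in tRNA share was 0.0209 percentage points, and 0.00463 without THY-Tau22 male replicate 3. In females it was -0.0179, and -0.00354 without WT female replicate 2, so single libraries carried much of both. Of 14 tested tRNA genes, 13 had a positive fitted log2 fold change in males, with a median of 0.85 and a range from -0.01 (mt-Ts2) to 2.22 (mt-Ty). All 14 were negative in females, from -1.43 (mt-Ty) to -0.13 (mt-Tt) with a median of -0.72. None passed the test in either sex, and the interaction of mt-Tf, 3.15 ± 0.85, had edgeR's adjusted p = 0.291. mt-Ty (tyrosine) was at 2.39, 4.48 and 1.14 CPM in WT males and 17.2, 7.28 and 19.9 CPM in THY-Tau22 males, on 1 to 29 UMIs a library. mt-Tp was at 42.6, 46.6 and 39.9 CPM in WT males and 57.2, 45.3 and 145 CPM in THY-Tau22 males, which overlap. The other tRNA genes tested were mt-Ta, mt-Tc, mt-Ti, mt-Tl1, mt-Tl2, mt-Tm, mt-Tq, mt-Tv and mt-Tw.

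**Figure D5:**
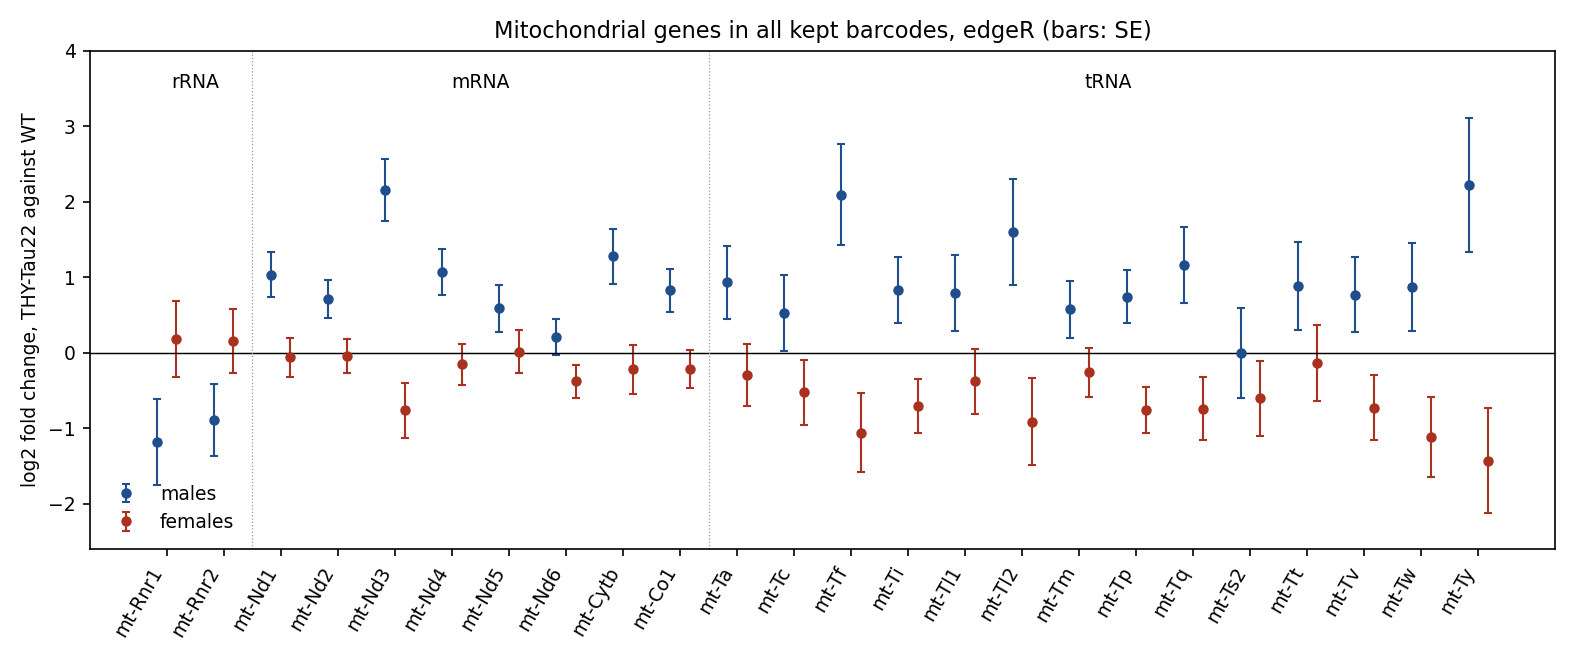
Fitted log2 fold change of THY-Tau22 against WT for 24 mitochondrial genes in all kept barcodes (vertical), in males (blue) and females (red), with SE bars from edgeR. The mRNA genes lie above 0 in males, from 0.20 to 2.16, the rRNA genes lie below 0, and all 14 tRNA genes lie below 0 in females, while no gene passed the adjusted test.

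Within cell classes, 6 calls passed the test, 5 in males and 1 for the interaction, and all were mRNA genes. In microglia-like cells of males, 4 of 14 members were called against 0.499% of all 4808 genes, and all 4 were higher in THY-Tau22. mt-Cytb was at 684, 847 and 434 CPM in WT males and at 1758, 1380 and 2548 CPM in THY-Tau22 males, a log2 fold change of 1.44 ± 0.34. mt-Nd4 was at 368, 544 and 231 CPM against 973, 769 and 1571 CPM (1.44 ± 0.33). mt-Nd1 was at 799, 799.5 and 490 CPM against 1594, 1200 and 2264 CPM (1.18 ± 0.28). The male groups did not overlap for any of these genes. mt-Nd3, at 8.86, 3.94 and 14.1 CPM against 71.3, 35.4 and 94.8 CPM, rested on 1 to 4 UMIs a library in WT males and 11 to 26 in THY-Tau22 males (2.78 ± 0.67). Each of the 4 had edgeR's adjusted p = 0.0485, just under the threshold.

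In females, 0 of 14 members were called in microglia-like cells (0% of all genes), with 1 at an unadjusted p under 0.05 (2.93% of all genes). DESeq2 called 0 of them as well, for which the share of all genes is not given here. mt-Cytb was at 1656, 2340 and 487 CPM in WT females and at 1525, 990, 1380, 1740 and 1321 CPM in THY-Tau22 females, with a log2 fold change of -0.05 ± 0.30. Averaged over the sexes 0 of 14 were called (0.0208% of all genes) and for the interaction 0 of 14 (0%), with 7 at an unadjusted p under 0.05 in each (6.88% and 14.2% of all genes), and DESeq2 called 1 for the interaction (0.354%). The interaction of mt-Cytb was 1.49 ± 0.44 with edgeR's adjusted p = 0.170, so a difference between the sexes did not pass its own test. The male calls were lost when any of 10 single libraries was left out, the 3 WT males among them, and when the scaling was computed on nuclear genes alone, where edgeR's adjusted p was 0.0544 for each of the 4. Over the alternatives, edgeR's and DESeq2's adjusted p of mt-Cytb ranged from 0.00148 to 0.296.

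In OPC-like cells of males, mt-Cytb was called alone, 1 of 8 members against 0.0807% of all genes. It was at 480, 654 and 479 CPM in WT males and 1366, 1233 and 4072 CPM in THY-Tau22 males, a log2 fold change of 1.93 ± 0.41 with edgeR's adjusted p = 0.0320. The highest value, of THY-Tau22 male replicate 3, came from 21 cells. Without that library edgeR's adjusted p was 0.563, and the call was also lost without WT male replicate 1, 2 or 4 or THY-Tau22 female replicate 2 or 5. Over 12 alternatives it ranged from 0.000906 to 0.435, and 8 of them ended the call. With doublets removed edgeR's adjusted p was 0.0925, with no filter on low counts 0.170 and with DESeq2 0.256. Females (0% of all genes) and the interaction (0%) gave 0 of 8 members, with 0 and 5 at an unadjusted p under 0.05 (3.55% and 6.7% of all genes), as did the average over the sexes (0.0807%) with 5 (7.18%).

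In oligodendrocyte-like cells, the interaction was called for mt-Nd3, 1 of 14 members against 0.328% of all genes. mt-Nd3 was at 21.1, 29.4 and 15.4 CPM in WT males and 137, 73.2 and 155 CPM in THY-Tau22 males. In females it was at 84.8, 121 and 24.9 CPM in WT and 45.5, 24.6, 24.9, 55.1 and 38.4 CPM in THY-Tau22 libraries. The libraries held 2 to 38 UMIs each. The male log2 fold change was 2.18 ± 0.48 and the female one -0.88 ± 0.41, and their difference was 3.07 ± 0.63 with edgeR's adjusted p = 0.0301. The call ended without THY-Tau22 male replicate 1 or 3, without THY-Tau22 female replicate 5, without WT female replicate 1 or 2, and without replicate 1 or 4 of the WT males, with edgeR's adjusted p up to 0.223. The male contrast alone called 0 of 14 members (0.0505% of all genes), with edgeR's adjusted p = 0.0527 for mt-Nd3, as did the female contrast (0.0252%) and the average over the sexes (0%). Unadjusted p was under 0.05 for 8, 2 and 2 members (18%, 3.33% and 5.17% of all genes).

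The remaining classes had no call. In astrocyte-like cells 0 of 14 members were called in males (0% of all genes), females (0%), both sexes (0%) and the interaction (0.0249%). In endothelial-like cells (13 members) and neuron-like cells (11 members) 0 were called in each contrast, against 0% of all genes. In males, unadjusted p was under 0.05 for 11 members in astrocyte-like (17.4% of all genes), 8 in endothelial-like (15.2%) and 8 in neuron-like cells (6.96%). The interaction gave 13 (17.5%), 6 (14%) and 9 (5.94%), females 3 (2.84%), 0 (2.23%) and 1 (3.04%), and the average over the sexes 3 (4.56%), 3 (4.72%) and 0 (4.93%). DESeq2 called 2 members in endothelial-like cells of males (0.267% of all genes) and 0 in astrocyte-like (0.0996%) and neuron-like cells (0%). The mRNA genes nonetheless had positive medians in males in every class, 0.88 in astrocyte-like, 1.09 in endothelial-like, 1.16 in microglia-like, 0.79 in oligodendrocyte-like, 1.20 in OPC-like and 1.07 in neuron-like cells, where the median over all genes was at most 0.05.

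Nuclear genes of the same organelle gave a reference. Of the 29 listed nuclear subunits of the respiratory chain and ATP synthase, 29 were tested in all cells and 0 were called in any contrast, with 9 at an unadjusted p under 0.05 in males, where 15.4% of all genes passed, and 15 for the interaction (12.7%). In males 29 of 29 had a positive fitted log2 fold change with a median of 0.51, and in females 28 of 29 were negative with a median of -0.21. These genes thus stood on the same side of 0 as the mitochondrial mRNAs in each sex. Cox4i1, a cytochrome c oxidase subunit, was at 302 ± 19.3 CPM in WT males and 543 ± 117 CPM in THY-Tau22 males (SD, n = 3 and 3), a log2 fold change of 0.66 ± 0.27 with edgeR's adjusted p = 0.282. Cox6c, of the same complex, gave 0.56 ± 0.27 (adjusted p = 0.337). The mitochondrial mRNA UMIs per UMI of this list were 1.72 to 2.22 in WT males and 2.35 to 2.52 in THY-Tau22 males, and in females 1.86 to 2.17 and 1.83 to 2.47.

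Of 34 listed genes that transcribe, process or degrade mitochondrial RNA, 33 had a row and 24 were tested in all cells. None was called, with 13 positive and 11 negative in males and a median of 0.07. The most abundant were Rexo2, an exonuclease for short RNAs in mitochondria (-0.22 ± 0.23 in males, edgeR's adjusted p = 0.658), and Slirp, a partner of Lrpprc in stabilising mitochondrial mRNAs. Slirp was at 72.9 ± 13.0 CPM in WT males and 131 ± 8.65 CPM in THY-Tau22 males (SD, n = 3 and 3), with a log2 fold change of 0.65 ± 0.29 and edgeR's adjusted p = 0.303. The most counted nuclear copies, Gm28437 and Gm10925, averaged 2.63 and 1.31 CPM and were not tested.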

How the data were processed

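Single-cell RNA of the cortex of 16 mice was measured by Drop-seq. The authors aligned the reads and deposited raw UMI counts per gene and barcode, without normalization, in tables of 3000 barcodes. The submitters' processing notes name mm10. The aligner's version, its setting for multiple matches and the use of strand were not given in the sources used here, so reads of genes that overlap, lie antisense or have near-identical copies are uncertain.

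The members and gene lists were chosen with earlier results of these data known. Barcodes with 200 to 7000 genes were kept, including those above 5% mitochondrial UMIs. Nuclear counts were clustered in Python 3.11.15 with scanpy 1.11.5 (2500 variable genes, 19 components, 20 neighbours) and leidenalg 0.10.2 at resolution 0.5. Clusters were named from at least 3 detected markers, so values that differ from the study's may reflect these rebuilt names. Doublets marked by Scrublet were kept, and removed in an alternative.

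The study fitted a Poisson regression over cells for its main calls, and used edgeR for the interaction of sex and genotype. Cells are not replicates, so counts were summed per mouse, over all cells and 6 classes with at least 10 cells per library, and tested with edgeR 4.0.16 in R 4.3.3 (quasi-likelihood test, TMM, filterByExpr, 1 mean per group, Benjamini-Hochberg over all genes). DESeq2 1.42.0 was an alternative. The labels do not describe repeat libraries of a mouse, but 1 animal number recurs in titles of different groups, as stated above. The p-values measure the spread between libraries, in which differences between mice and between preparations cannot be told apart. Class shares were described without a test, since they are sums over members. The fit was tested on simulated counts.

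Every rRNA and mRNA gene, each tRNA gene tested, and of each list the 2 most abundant genes and any gene called are named. A limit of 5% mitochondrial UMIs, counted without rRNA, was tried as an alternative. It therefore does not filter on the rRNA share. CPM is UMIs per 1000000 UMIs. Shared sequence was searched as exact 60-base windows of GRCm38 transcripts. Intervals for single barcodes were not computed, and SDs between libraries include counting error. The alternatives comprised 11 planned settings, each of 14 libraries left out in turn, and 1 chosen after seeing the data.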

Additional observations from a re-analysis of the deposited data

Results flagged for a closer look

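The tRNA share of neuron-like cells in THY-Tau22 female replicate 4 was 0.111% of UMIs, far above the rest of its group relative to their range. The gap to the nearest of them was 0.774 of the range of the group, where the limit for 5 samples is 0.71. Of 52 measures examined, all in the THY-Tau22 females, this was the 1 that passed, where chance passes about 1 in 20. The measures come from the same 5 libraries and are not independent. Over the 14 libraries the tRNA share of neuron-like cells reached 0.311%, and its mean in WT females was 0.137%, so the flagged value was high only within its group.

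The genotype difference of mt-Nd3 in oligodendrocyte-like cells differed between the sexes, by 3.07 on the log2 scale (male minus female, edgeR's adjusted p = 0.0301). The gene shares 97.9% of its 60-base windows with Gm28438 and had 2 to 38 UMIs per library.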

How the results depend on the processing

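The genotype differences in RNA class shares moved by less than 1 SD under 8 alternatives and kept their sign in males. Some of these settings could not move a value. The MB21 setting removes no male, and the settings on the shared library change no female. The SD of the females was wide, and their rRNA difference ran from 1.74 to 6.10 percentage points. With each library left out in turn, the rRNA share differed by -9.09 to -6.13 percentage points in males and -2.21 to 7.01 in females, and the mRNA share by 0.486 to 0.697 and -0.336 to 0.0838. The calls were less stable. The counts below are of members alone, without the share of all genes called under the same setting, so they describe stability only. Against 5 calls in males summed over 7 levels, DESeq2 gave 8, no filter on low counts 21, the MB21 libraries alone (without WT female replicate 3 and THY-Tau22 female replicate 5) 23, barcodes of at least 500 genes 1, and TMM on nuclear genes, all 16 tables as labelled, the shared library as THY-Tau22 male and Leiden resolution 1.0 each 0. Against 1 call for the interaction, no filter gave 13, the MB21 libraries alone 42, and all 16 tables, the shared library as THY-Tau22 male and at least 500 genes each 0. With single libraries left out, the calls ranged from 0 to 26 in males, 0 to 51 for the interaction, 0 to 1 in females and 0 to 2 over both sexes. The highest male and interaction counts, and the female one, came without WT female replicate 3, and the count of 2 came without WT female replicate 2, whose omission also gave 17 male calls. The male count was 0 without any 1 of the WT males, THY-Tau22 male replicate 3 or THY-Tau22 female replicate 2 or 5. mt-Nd6 in all cells of males turned from 0.20 to -0.035 with at least 500 genes. Leaving out the unnamed cluster of Enpp2 and Kif5a, chosen after seeing the data, gave 5 and 1 calls. The call of mt-Cytb in OPC-like males ended under 8 of 12 alternatives, doublets removed among them. The cause of these changes was not tested. No paired analysis was possible because the labels give no replicate numbers.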
